A study of Mus musculus with 30 samples.

Results

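The genes described here are 9 components of the type I interferon response chain: the receptor chains Ifnar1 and Ifnar2, the receptor-bound kinases Jak1 and Tyk2, the signal transducer Stat2, and the interferon regulatory factors Irf1, Irf3, Irf7 and Irf9. They were chosen by name, as the 9 rows of the count table, out of 51752 genes, that carry these symbols. Every gene had reads in all 30 libraries. The study asked what loss of interleukin-34 (IL-34), a ligand of the receptor Csf1r on which microglia depend, does to microglia in the mouse brain. It used 15 saline-perfused mice. One hemisphere of the forebrain gave a whole-tissue RNA library, and the other gave a library of cells pulled out with magnetic beads against CD11b, a surface protein of microglia and other myeloid cells. These bead-isolated libraries are called isolates below. In the genetic experiment, 4 mice heterozygous for the Il34 deletion (Het, 2 male and 2 female) were the controls for 3 homozygous mice (KO, 1 male and 2 female). The Het mice thus carried 1 intact Il34 copy and were not wild type. In the antibody experiment, 4 wild-type mice received a control antibody against gp120, a protein of a virus that mice do not carry (anti-gp120, 2 male and 2 female), and 4 wild-type mice received a blocking antibody against IL-34 (anti-IL34, 3 male and 1 female). The experiments share no library. Neither the age of the mice nor how much antibody was given, and when, is given in the sources used here.

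Type I interferons bind a receptor made of Ifnar1 and Ifnar2, whose intracellular ends carry the kinases Tyk2 and Jak1. The kinases phosphorylate Stat2, which joins Irf9 in the transcription factor complex ISGF3. ISGF3 switches on the interferon-stimulated genes, among them Irf7, Irf9 and Stat2 themselves, so that the complex and Irf7 are both parts and products of the response. Irf3 is present before any stimulus and, once phosphorylated, starts transcription of interferon beta, while Irf7 drives most of the interferon alpha genes. Irf1 is a target of interferon gamma and other cytokines. Activation of the receptors, kinases and Irf3 occurs through phosphorylation, which RNA levels do not measure. In the brain, microglia carry the whole chain, and other brain cells carry the receptor too.

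Library totals ranged from 15.1 to 75.2 M counts (M, mega-counts). Il34 itself was at 18.6 to 23.2 CPM (counts scaled to library size, with TMM scaling between libraries) in Het forebrain, 6.55 to 8.31 CPM in KO forebrain and 30.5 to 39.4 CPM in the antibody-treated forebrains. Which part of Il34 the deletion removes is not given in the sources used here. The bead isolates carried the defining microglial transcripts: Csf1r was at 3101 to 5738 CPM in control isolates and at 42.4 to 94.1 CPM in control forebrain. A list of 9 microglial markers summed to 233 to 272 CPM in Het forebrain against 101 to 122 in KO, and to 378 to 468 CPM in anti-gp120 forebrain against 168 to 205 in anti-IL34. In isolates the same sums were 11300 to 19600 (Het), 4410 to 4780 (KO), 14500 to 19200 (anti-gp120) and 5870 to 9170 CPM (anti-IL34). In such bulk libraries fewer microglia and less RNA per microglial cell cannot be told apart. Markers of other cells did not move as one in the isolates. In KO isolates the median log2 difference from Het was 0.91 for 6 neuronal, 0.94 for 5 astrocyte and 0.83 for 5 oligodendrocyte markers, -0.55 for 5 choroid plexus and -0.16 for 6 border macrophage markers. In anti-IL34 isolates the same medians against anti-gp120 were 0.95, 0.66, 0.61, 2.94 and -0.49. None of these markers passed the edgeR test in isolates. DESeq2 called 3 astrocyte, 1 neuronal and 1 oligodendrocyte marker in KO isolates, and 3 choroid plexus, 2 border macrophage and 1 neuronal marker in anti-IL34 isolates. The part of these shifts in the results below was not tested.

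In whole forebrain of control mice the chain was present from receptor to transcription factors, but at very different levels. Per kilobase of exon, Jak1 was the highest in Het forebrain, at 23.2 ± 0.82 CPM per kb (SD, n = 4). It was followed by Ifnar1 at 10.7 ± 0.27, Stat2 at 4.01 ± 0.13, Irf3 at 2.91 ± 0.14, Tyk2 at 2.42 ± 0.13, Ifnar2 at 1.93 ± 0.11, Irf9 at 1.59 ± 0.11, Irf1 at 0.69 ± 0.061 and Irf7 at 0.19 ± 0.038 CPM per kb. By this measure the receptor chain Ifnar1 stood above its partner Ifnar2, and the inducible factor Irf7 was the scarcest of the 9. In anti-gp120 forebrain the order was the same, except that Irf9 (1.94 ± 0.22) and Ifnar2 (1.88 ± 0.18) lay within their spread of each other. In Het isolates Jak1 was again highest (49.4 ± 16.9 CPM per kb) and Irf7 lowest (2.53 ± 1.26), but Irf1 (21.0 ± 5.09) lay within its spread of Ifnar1 (21.8 ± 4.01).

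All 9 genes were higher in isolates than in forebrain of the 8 control mice. The background was high, since 84.1% of the genes tested (edgeR, adjusted p under 0.05) differed between these tissues. The sizes separated the genes. Irf1 was 35.2-fold higher in isolates (log2 fold change 5.14 ± 0.20, SE), Irf7 13.1-fold (3.72 ± 0.38), Ifnar2 6.97-fold (2.80 ± 0.11), Irf9 3.97-fold (1.99 ± 0.14) and Irf3 3.02-fold (1.59 ± 0.076). Tyk2 (2.72-fold, log2 1.44 ± 0.11), Ifnar1 (2.47-fold, 1.30 ± 0.13), Jak1 (2.33-fold, 1.22 ± 0.14) and Stat2 (2.07-fold, 1.05 ± 0.17) differed least. The receptor chains stood apart in this contrast, with 95% intervals of 2.58 to 3.02 for Ifnar2 and 1.03 to 1.58 for Ifnar1 on the log2 scale that did not overlap. The largest adjusted p of the 9 was 2.26e-05 (Stat2, edgeR), and a fit with the animal as a block also called all 9. For comparison, the median log2 fold change of the 9 was 1.59, and Csf1r, the microglial receptor, stood at 6.17.

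Across the 8 combinations of arm and tissue, 6 of the genes kept the tissues apart. For Ifnar1, Ifnar2, Jak1, Tyk2, Irf1 and Irf3 every isolate group had a higher mean than every forebrain group, and the lowest isolate group did not overlap the highest forebrain group. Irf1 was the widest case, with 50.8 CPM in KO isolates and 3.68 CPM in anti-IL34 forebrain. Stat2, Irf9 and Irf7 did not separate this way. Stat2 averaged 34.3 CPM in anti-IL34 forebrain and 31.8 in KO isolates, and Irf7 6.44 CPM in anti-IL34 forebrain and 5.0 in KO isolates. Irf9 averaged 20.8 CPM in KO isolates and 19.4 in anti-IL34 forebrain. In each of these pairs the libraries overlapped. Among the isolates the highest mean belonged to anti-gp120 for Ifnar1, Ifnar2, Jak1, Tyk2, Irf1 and Irf3 and to anti-IL34 for Stat2, Irf9 and Irf7. The anti-IL34 isolates overlapped the next group, anti-gp120, for Stat2 and Irf9 but not for Irf7. KO isolates had the lowest mean of the 4 isolate groups for all 9.

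In forebrain of mice given anti-IL34, Irf7 and Irf9 rose against anti-gp120, 2 of the 9 genes, where 0.717% of all genes tested changed in either direction. Stat2 was higher in every anti-IL34 library but did not pass the test. The receptor chains, kinases, Irf1 and Irf3 did not pass either. Irf7, Irf9 and Stat2 were the 3 of the 9 with an unadjusted p under 0.05, against 4.86% of all genes, and the 3 that DESeq2 called, against 1.15% of all genes. The arms failed to overlap in the higher direction for 3 of the 9 (Stat2, Irf7 and Irf9), against 0.776% of all genes, and in the lower direction for 0 of 9, against 2.67% of all genes.

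**Figure D1:**
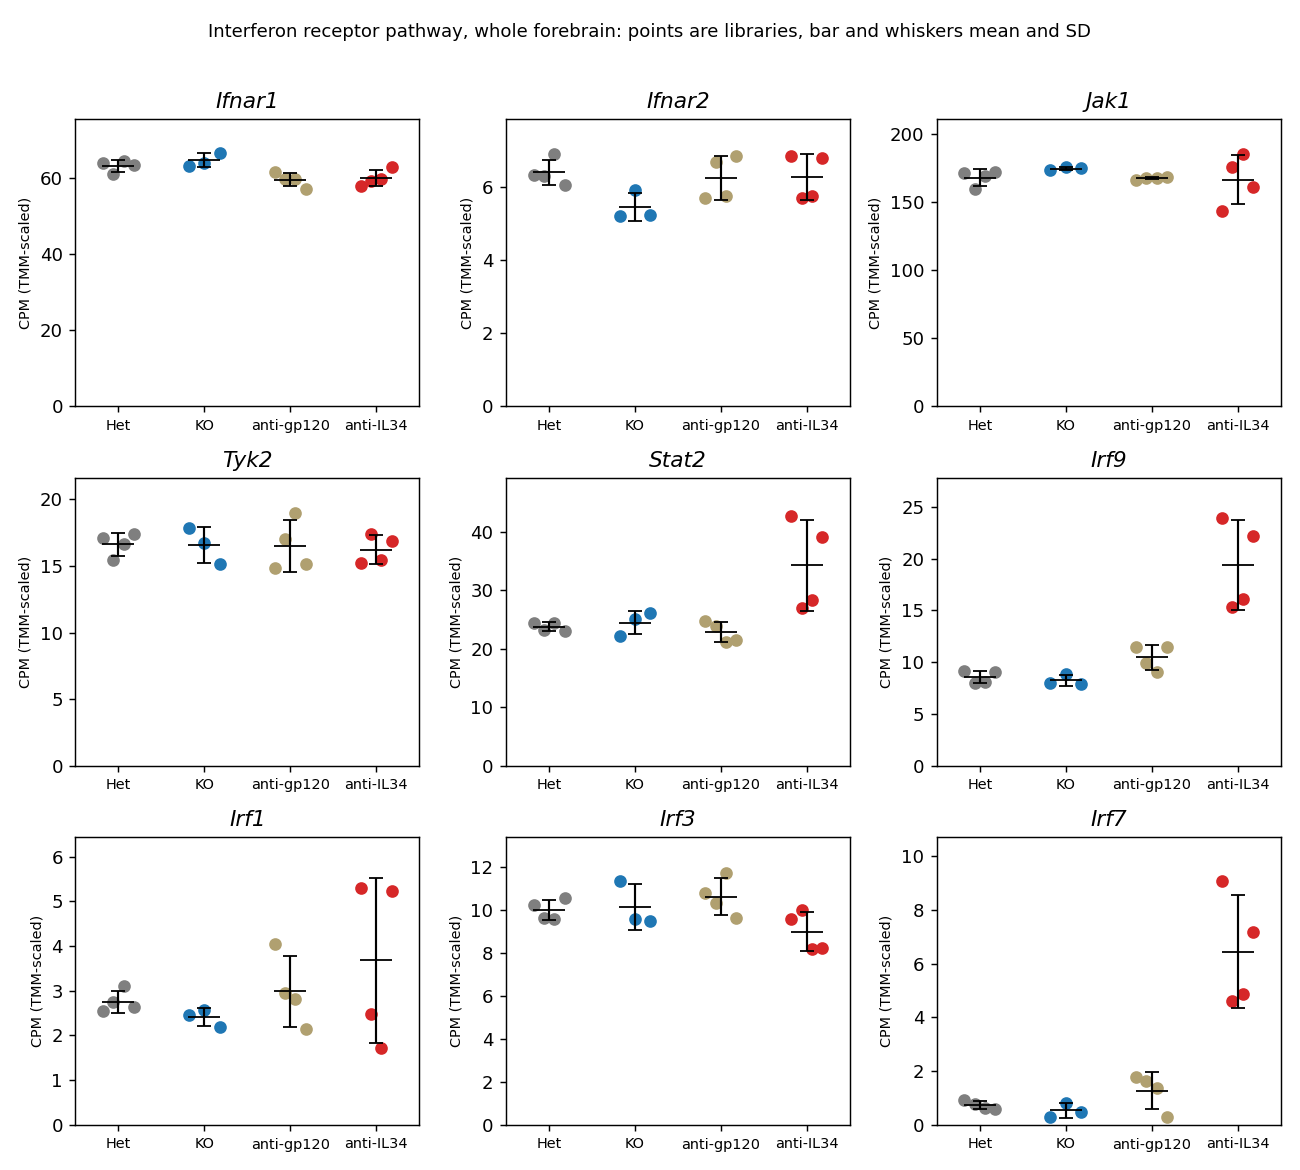
CPM of the 9 genes in whole forebrain (vertical axes from 0, linear) in the 4 arms, 1 point per library, with bars at the mean and whiskers of 1 SD. Irf7, Irf9 and Stat2 lie higher in all 4 anti-IL34 libraries than in all anti-gp120 libraries, whereas the antibody arms overlap for the receptor chains and kinases.

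The receptor chains and kinases were nearly flat across the antibody arms in forebrain. Ifnar1 (chromosome 16, bases 91485238 to 91507441, plus strand, GRCm38) read 61.7, 59.8, 59.9 and 57.3 CPM in anti-gp120 mice 1, 7, 8 and 15, and 58.1, 59.4, 59.9 and 63.1 CPM in anti-IL34 mice 2, 10, 11 and 24. The arms overlapped, and the fitted log2 fold change was 0.03 (95% interval -0.10 to 0.16). Ifnar2 (chromosome 16, bases 91372783 to 91405589, plus strand) ranged from 5.72 to 6.87 CPM in anti-gp120 and from 5.71 to 6.86 in anti-IL34, a difference of 0.02 (-0.27 to 0.31) on the log2 scale. Jak1 (chromosome 4, bases 101152367 to 101265282, minus strand) differed by 0.04 (-0.10 to 0.18), and Tyk2 (chromosome 9, bases 21104068 to 21131243, minus strand) by 0.02 (-0.21 to 0.24). The intervals of these 4 genes together span 0.827-fold to 1.24-fold. Each had an edgeR adjusted p of 0.999.

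Jak1 was steady in anti-gp120 mice, at 166, 168, 168 and 169 CPM in mice 1, 7, 8 and 15. In anti-IL34 mice 2, 10, 11 and 24 it read 144, 175, 185 and 161 CPM. The anti-IL34 libraries lay on both sides of the control range, with mice 2 and 24 below it and mice 10 and 11 above it.

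Irf7, which drives most interferon alpha genes, had the largest change of the 9. Its gene lies on chromosome 7, bases 141262706 to 141266481, minus strand. In anti-gp120 forebrain it read 1.79, 1.65, 1.38 and 0.289 CPM in mice 1, 7, 8 and 15. In anti-IL34 forebrain it read 9.08, 4.62, 4.88 and 7.19 CPM in mice 2, 10, 11 and 24. All anti-IL34 libraries lay above all anti-gp120 libraries, with mouse 15 the lowest of the controls and mice 2 and 24 the highest of the treated. Irf7 was 4.5-fold higher (log2 fold change 2.17 ± 0.31, SE, edgeR adjusted p = 0.00843) and ranked 39 by p among 17143 genes. The adjusted p stayed below 0.05 when any 1 of 7 of the 8 mice was left out, and was 0.11 without anti-IL34 mouse 11, the sole female of that arm. Its counts ranged from 5 to 138 a library in anti-gp120 and from 99 to 198 in anti-IL34. Without the low control mouse 15 the log2 fold change was 1.99.

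Irf9, the DNA-binding part of ISGF3, rose 1.82-fold in the same libraries. It lies on chromosome 14, bases 55603571 to 55610030, plus strand. It read 11.4, 9.94, 9.02 and 11.5 CPM in anti-gp120 mice 1, 7, 8 and 15, and 23.9, 15.3, 16.1 and 22.2 CPM in anti-IL34 mice 2, 10, 11 and 24. The arms did not overlap, and mice 2 and 24 were again the highest. The log2 fold change was 0.86 ± 0.16 (SE, edgeR adjusted p = 0.0403). This call was near the threshold: the adjusted p was 0.145, 0.208 and 0.117 without anti-gp120 mouse 1, 7 or 8, and 0.0647, 0.168 and 0.105 without anti-IL34 mouse 2, 11 or 24. It passed without anti-gp120 mouse 15 (0.0268) or anti-IL34 mouse 10 (0.00755).

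Stat2, the transducer that joins Irf9 in ISGF3, showed the same pattern at a smaller size and did not pass the main test. Stat2 lies on chromosome 10, bases 128270559 to 128292849, plus strand. It read 24.8, 23.9, 21.2 and 21.6 CPM in anti-gp120 mice 1, 7, 8 and 15, and 42.7, 27.0, 28.4 and 39.1 CPM in anti-IL34 mice 2, 10, 11 and 24. The arms did not overlap, and mice 2 and 24 stood clear of mice 10 and 11. The log2 fold change was 0.54 ± 0.14 (SE, edgeR adjusted p = 0.212, DESeq2 adjusted p = 0.0182). In edgeR the adjusted p was 0.0121 without anti-IL34 mouse 10, 0.024 with all 15 forebrain libraries in the fit and 1.41e-06 with no filter on low counts. With any 1 of the other 7 mice left out it was between 0.199 and 0.719.

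Irf1 and Irf3 did not follow these genes in forebrain. Irf1 (chromosome 11, bases 53770014 to 53778374, plus strand) read 4.04, 2.95, 2.82 and 2.14 CPM in anti-gp120 mice 1, 7, 8 and 15, and 5.29, 2.47, 1.73 and 5.23 in anti-IL34 mice 2, 10, 11 and 24. Mice 2 and 24 were above all controls, mouse 11 was below all of them, and the arms overlapped. The difference was 0.10 (-0.54 to 0.73) on the log2 scale. Irf3 (chromosome 7, bases 44997648 to 45002848, plus strand) read 10.8, 10.3, 11.7 and 9.64 CPM against 9.57, 9.98, 8.18 and 8.24 in the same mice. Its estimate was lower by 0.22 on the log2 scale, with an interval of -0.47 to 0.02 and an adjusted p of 0.999. In the main fit, with sex as a covariate, Irf3, the factor that precedes the response, was thus the only one of the 9 with a negative estimate here. The plain means under anti-IL34 were also lower for Jak1 (166.3 against 167.5 CPM) and Tyk2 (16.2 against 16.5 CPM). The fitted signs of Ifnar2, Jak1, Tyk2 and Irf1 turned in some fits that left out 1 mouse.

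Because Stat2, Irf9 and Irf7 were higher together in the anti-IL34 forebrain, their promoter windows are shown. Each runs from 250 bases before to 50 bases from the transcription start in RefSeq (GRCm38.p6), is written 5′ to 3′ on the gene's strand, and has capitals at matches to the core of the interferon-stimulated response element. That core was searched as GAAANNGAAA and as TTTCNNTTTC, its other strand, with the gamma-activated sequence TTCNNNGAA, which reads the same on both strands, searched separately. The windows lie at chr10:128270248-128270547 (plus strand) for Stat2, chr14:55603735-55604034 (plus strand) for Irf9, where the first of 2 annotated starts is shown, and chr7:141266375-141266674 (minus strand) for Irf7.
Stat2: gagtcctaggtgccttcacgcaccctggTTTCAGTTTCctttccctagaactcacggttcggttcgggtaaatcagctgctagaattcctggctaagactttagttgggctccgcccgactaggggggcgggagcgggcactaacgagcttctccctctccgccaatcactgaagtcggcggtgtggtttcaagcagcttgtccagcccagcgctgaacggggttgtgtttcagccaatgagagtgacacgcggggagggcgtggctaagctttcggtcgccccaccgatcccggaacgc
Irf9: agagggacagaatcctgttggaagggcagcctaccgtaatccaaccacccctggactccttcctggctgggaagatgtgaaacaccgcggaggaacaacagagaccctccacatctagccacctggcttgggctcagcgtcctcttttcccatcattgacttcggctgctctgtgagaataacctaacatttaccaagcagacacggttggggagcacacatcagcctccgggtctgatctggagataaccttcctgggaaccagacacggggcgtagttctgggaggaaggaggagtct
Irf7: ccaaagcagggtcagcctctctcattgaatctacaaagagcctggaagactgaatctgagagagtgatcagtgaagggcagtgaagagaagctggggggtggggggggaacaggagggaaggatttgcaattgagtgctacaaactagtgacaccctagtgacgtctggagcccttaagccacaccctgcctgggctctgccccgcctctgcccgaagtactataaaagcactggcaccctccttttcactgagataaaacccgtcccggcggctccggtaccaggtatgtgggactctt
The response element core was found in 1 of the 9 genes, Stat2, on the other strand (TTTCAGTTTC, bases -222 to -213 from the start), and in none of the other windows, including the second windows of Irf9 and Irf1. The core is held by 3.44% of all 32851 mouse windows and by 3.99% of all 27025 genes with a window. Of 25 interferon target genes with a window, 13 hold it. The gamma-activated sequence was found in Ifnar1 (TTCACGGAA, bases -5 to 4), Ifnar2 (TTCCTGGAA, bases -214 to -206) and Irf1 (TTCCCCGAA, bases -90 to -82), and 8.3% of all windows and 9.55% of all genes hold it. These letter matches describe the windows only.

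In isolates of anti-IL34 mice, Irf7, Stat2 and Irf9 were higher in estimate and the receptor side was not, but no gene of the 9 passed the main test. The share of all genes tested that passed was 0.626%. At an unadjusted p under 0.05 there were 4 of the 9, against 25.9% of all genes. DESeq2 called 3 (Irf7 and Stat2 higher, Jak1 lower), where it called 11.5% of all genes. The arms did not overlap in the higher direction for 1 of the 9, Irf7, against 4.76% of all genes, and in the lower direction for 0 of 9, against 10.8% of all genes.

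**Figure D2:**
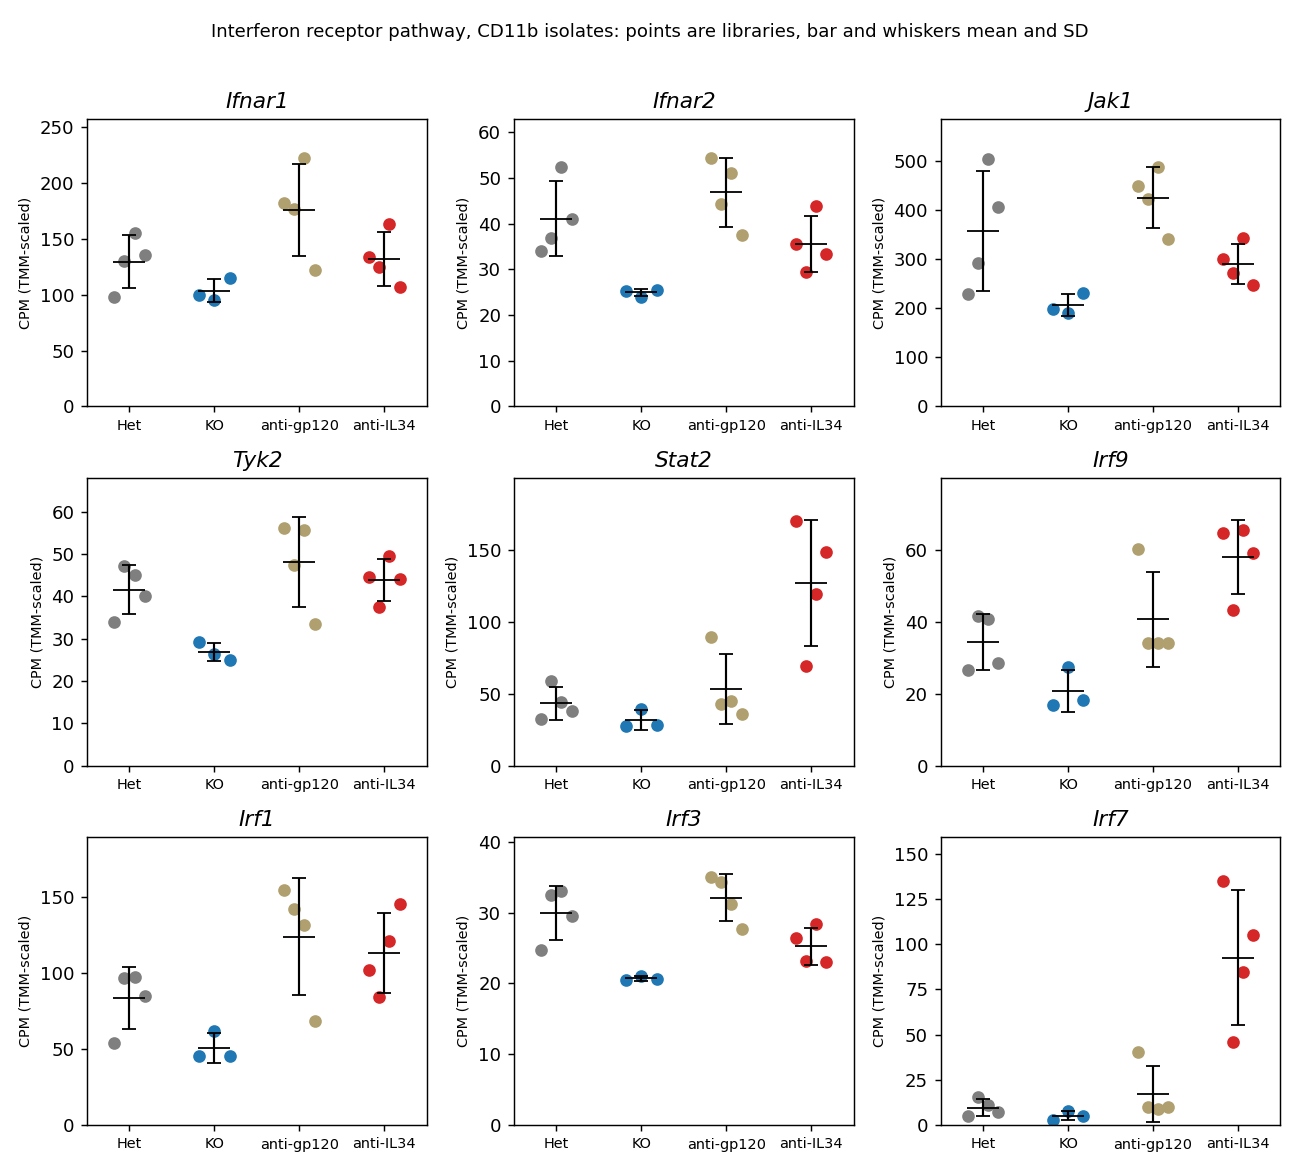
CPM of the 9 genes in CD11b isolates (vertical axes from 0, linear) in the 4 arms, 1 point per library, with bars at the mean and whiskers of 1 SD. Irf7 in the 4 anti-IL34 libraries lies between 45.8 and 135 CPM, above every other isolate, and KO isolates have the lowest mean for all 9 genes.

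Irf7 read 40.5, 9.82, 8.58 and 10.0 CPM in anti-gp120 isolates of mice 1, 7, 8 and 15. It read 135, 45.8, 84.7 and 105 CPM in anti-IL34 isolates of mice 2, 10, 11 and 24. The highest control, mouse 1, came close to the lowest treated library, mouse 10, and the arms did not overlap. The difference was 5.2-fold (log2 2.38 ± 0.52, SE), with an edgeR adjusted p of 0.0691 and a DESeq2 adjusted p of 0.000165. Without anti-gp120 mouse 1 the log2 difference was 3.22 (edgeR adjusted p = 0.0936), and without anti-gp120 mouse 15 it was 2.24 (0.0189).

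Stat2 read 89.7, 42.5, 44.7 and 36.2 CPM in anti-gp120 isolates of mice 1, 7, 8 and 15 and 170, 69.4, 119 and 149 CPM in anti-IL34 isolates of mice 2, 10, 11 and 24. Mouse 1 was higher than anti-IL34 mouse 10, so the arms overlapped. The difference was 1.19 ± 0.34 on the log2 scale (SE, edgeR adjusted p = 0.109, DESeq2 adjusted p = 0.0153). Irf9 read 60.4, 34.0, 34.0 and 34.2 CPM against 64.7, 43.2, 65.4 and 59.1 CPM in the same mice. The single high control, mouse 1, lay within the treated range, and the difference was 0.50 ± 0.23 (SE, edgeR adjusted p = 0.203). Mouse 1 was thus the highest anti-gp120 isolate for Irf7, Irf9 and Stat2 at once. In forebrain mouse 1 was also the highest anti-gp120 library for Irf7 (1.79 CPM, others 0.289 to 1.65) and Stat2 (24.8 CPM, others 21.2 to 23.9). For Irf9 it was just below mouse 15 (11.4 against 11.5 CPM). Unlike in the isolates, these forebrain values lay close to the next library.

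On the receptor side, the isolate estimates under anti-IL34 were negative. Jak1 read 449, 421, 486 and 341 CPM in anti-gp120 mice 1, 7, 8 and 15 and 300, 272, 342 and 247 CPM in anti-IL34 mice 2, 10, 11 and 24. The arms overlapped only through control mouse 15, which was just below treated mouse 11. Its log2 difference was -0.53 (-0.90 to -0.16, edgeR adjusted p = 0.123). Ifnar1 was at -0.39 (-0.86 to 0.09), Ifnar2 at -0.38 (-0.77 to 0.00), Irf3 at -0.35 (-0.64 to -0.06), Irf1 at -0.16 (-0.78 to 0.45) and Tyk2 at -0.14 (-0.56 to 0.29). Control mouse 15 had the lowest anti-gp120 isolate value of Ifnar1, Ifnar2, Jak1, Tyk2, Stat2, Irf1 and Irf3. Without that mouse 6 of the 9 genes passed the edgeR test, namely Ifnar1, Ifnar2, Jak1 and Irf3 lower and Stat2 and Irf7 higher, while the count over all genes went from 110 to 6905. The median of the 9 estimates was -0.16, beside a median over all genes of 0.057.

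**Figure D3:**
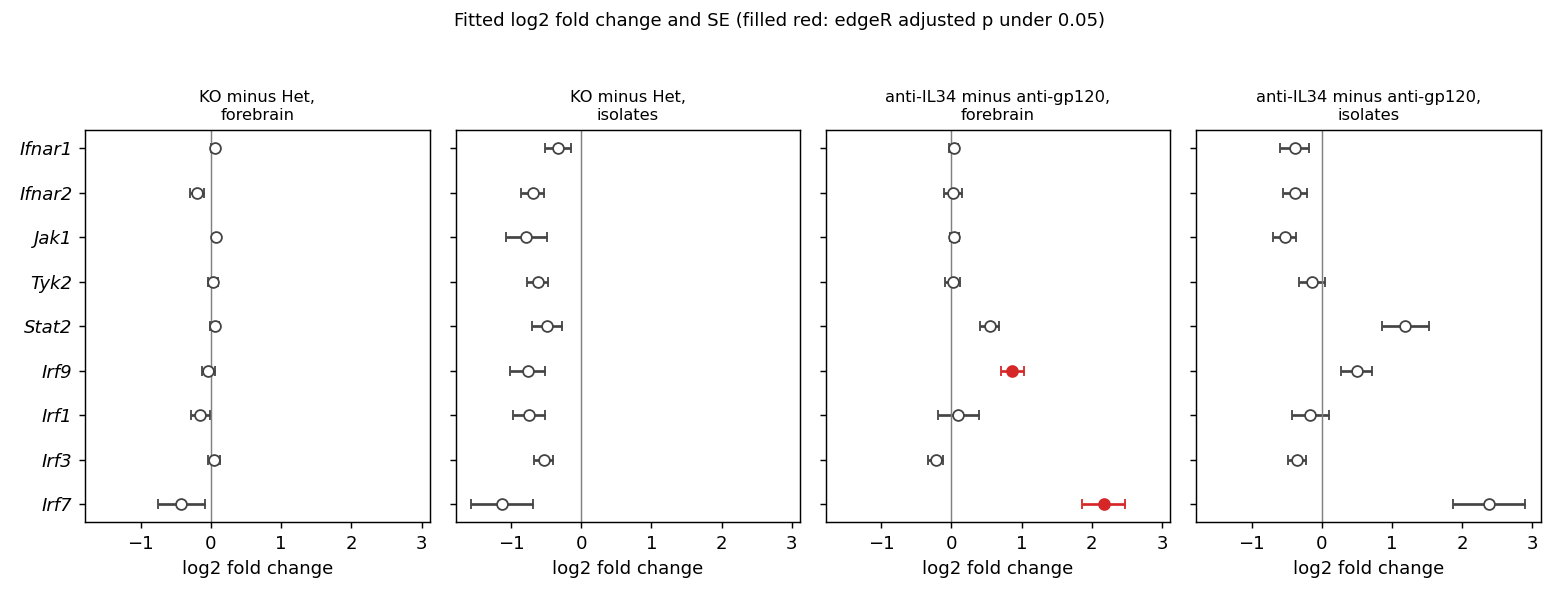
Fitted log2 fold change with SE (horizontal axis) of each of the 9 genes in the 4 comparisons of arms, filled red where the edgeR adjusted p was under 0.05. Only Irf9 and Irf7 in anti-IL34 forebrain are filled, at 0.86 and 2.17.

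In KO forebrain no rise was detected. None of the 9 genes passed the edgeR test between KO and Het forebrain, where 0.62% of all genes did, and none passed at an unadjusted p under 0.05 (7.45% of all genes) or in DESeq2 (0.92%). Irf7 read 0.913, 0.788, 0.628 and 0.606 CPM in Het mice 1, 20, 21 and 23 and 0.296, 0.817 and 0.494 CPM in KO mice 3, 6 and 24. The arms overlapped, with KO mouse 3 the lowest of the 7, and the log2 difference was -0.43 (-1.15 to 0.30). Irf9 was at -0.04 (-0.22 to 0.15), Stat2 at 0.05 (-0.09 to 0.20), Irf3 at 0.05 (-0.13 to 0.23), Irf1 at -0.15 (-0.46 to 0.16), Ifnar1 at 0.05 (-0.05 to 0.15) and Tyk2 at 0.03 (-0.11 to 0.17). The KO and Het libraries did not overlap for 2 genes. Jak1 was higher in KO (173 to 175 CPM against 159 to 172), where 2.09% of all genes were higher without overlap, and Ifnar2 was lower in KO (5.21 to 5.92 CPM against 6.08 to 6.91), where 6.24% of all genes were lower without overlap. Their log2 differences were 0.08 ± 0.040 and -0.20 ± 0.099 (SE), with edgeR adjusted p of 0.713 and 0.701.

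In KO isolates all 9 estimates were below those of Het, and none passed the edgeR test, where 5.37% of all genes did. At an unadjusted p under 0.05 there were 7 of the 9, against 32.6% of all genes. DESeq2 called 5 lower (Ifnar2, Tyk2, Irf1, Irf3 and Irf9), where it called 21.4% of all genes. The arms did not overlap in the lower direction for 3 of the 9 (Ifnar2, Tyk2 and Irf3), against 20% of all genes, and in the higher direction for 0 of 9, against 17.7% of all genes. The median log2 difference of the 9 was -0.69, beside 0.019 over all genes. The 9 microglial markers had a median of -1.6 in the same libraries, and 5 astrocyte markers a median of 0.94. The part of this change in library content in the estimates was not tested.

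Ifnar2 read 34.0, 36.9, 52.5 and 41.1 CPM in Het isolates of mice 1, 20, 21 and 23 and 25.4, 24.0 and 25.5 CPM in KO isolates of mice 3, 6 and 24. Every KO library was below every Het library, and the log2 difference was -0.69 (-1.10 to -0.29, edgeR adjusted p = 0.0671). Tyk2 read 34.0, 47.1, 45.1 and 40.0 CPM in Het and 29.2, 26.4 and 25.1 CPM in KO, a difference of -0.62 (-0.98 to -0.26, adjusted p = 0.0661). Irf3 read 24.8, 32.4, 33.0 and 29.6 CPM in Het and 20.4, 21.0 and 20.6 CPM in KO, a difference of -0.53 (-0.86 to -0.21, adjusted p = 0.0729). In these 3 genes Het mouse 1 was the Het library nearest to the KO range. Irf7 read 4.73, 15.6, 11.0 and 6.96 CPM in Het isolates and 2.56, 7.51 and 4.94 CPM in KO isolates, with overlap, and the log2 difference was -1.13 (-2.17 to -0.09, adjusted p = 0.139). Jak1 was at -0.78, Irf9 at -0.76, Irf1 at -0.75, Stat2 at -0.48 and Ifnar1 at -0.33. Without Het mouse 1, 5 of the 9 genes passed the edgeR test (Ifnar2, Jak1, Tyk2, Irf1 and Irf3), and without Het mouse 21 3 did (Ifnar2, Tyk2 and Irf3). The count over all genes moved with them, from 976 to 5756 and 3115, and was 0 without any 1 of the other 5 mice.

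The effect in isolates was set against the effect in forebrain by an interaction term. For anti-IL34 the Irf7 effect differed between tissues by 0.19 (-1.29 to 1.66) on the log2 scale, the Stat2 effect by 0.63 (-0.22 to 1.48) and the Irf9 effect by -0.38 (-1.04 to 0.28). Jak1 had the smallest p of the 9, with an effect lower in isolates by 0.58 on the log2 scale (edgeR adjusted p = 0.18, DESeq2 adjusted p = 0.0275). None of the 9 passed in edgeR, where 0.0924% of all genes did. At an unadjusted p under 0.05 there was 1 (21.1% of all genes), and DESeq2 called 1 (5.94% of all genes). For KO against Het all 9 interaction estimates were negative, from -0.36 (Ifnar1) to -0.84 (Jak1), and again none passed in edgeR, where 2.98% of all genes did. Of the 9, 5 had an unadjusted p under 0.05, as had 31% of all genes. DESeq2 called 2, Tyk2 and Irf3, beside the 18.1% it called of all genes. With the animal as a block, the counts over all genes fell from 17 to 0 and from 599 to 0, and none of the 9 genes passed.

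The deletion effect was also tested against the antibody effect, which crosses genotype, control, experiment and any difference of strain background at once. In forebrain the KO effect on Irf7 was lower than the anti-IL34 effect by 2.47 on the log2 scale (95% interval -3.58 to -1.35, edgeR adjusted p = 0.222), ranking 17 by p among 19724 genes. For Irf9 the difference was -0.91 (-1.33 to -0.49, adjusted p = 0.25, DESeq2 adjusted p = 0.0106) and for Stat2 -0.50 (-0.87 to -0.12, adjusted p = 1). For Irf3 it was 0.26 and for Irf1 -0.28, and on the receptor side it was -0.23 for Ifnar2, 0.02 for Ifnar1, 0.04 for Jak1 and 0.00 for Tyk2, each with an adjusted p of 1. In isolates the differences were -3.26 for Irf7 (-5.11 to -1.42, adjusted p = 0.654, DESeq2 adjusted p = 0.0416), -1.63 for Stat2 (-2.68 to -0.59, adjusted p = 0.75) and -1.20 for Irf9 (-2.0 to -0.41, adjusted p = 0.802). None of the 9 passed in edgeR in either tissue. The share of all genes that passed was 0.0101% in forebrain and 0% in isolates. In each tissue 3 of the 9 had an unadjusted p under 0.05, as had 3.07% of all genes in forebrain and 3.95% in isolates. DESeq2 called 1 of the 9 in each tissue, and 0.142% and 0.187% of all genes.

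The rest of the interferon system was described through lists of its genes. Of 18 type I interferon ligand genes, Ifnb1, interferon beta, was the only one that could be tested, and only in isolates. It was at 0 in all 15 forebrain libraries. In antibody-treated isolates it read 0.362 to 0.506 CPM in anti-gp120 and 1.09 to 1.80 CPM in anti-IL34, with 6 to 24 counts a library in the first and 25 to 51 in the second. The arms did not overlap, and Ifnb1 was 3.02-fold higher (log2 1.6 ± 0.26, SE, edgeR adjusted p = 0.0485). With 1 mouse left out at a time that call held in 1 of 8 fits, and the highest adjusted p was 0.225, without anti-gp120 mouse 7. In Het and KO isolates Ifnb1 reached at most 0.704 and 0.448 CPM. No interferon alpha gene of 13 exceeded 2 counts in any library.

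**Figure D4:**
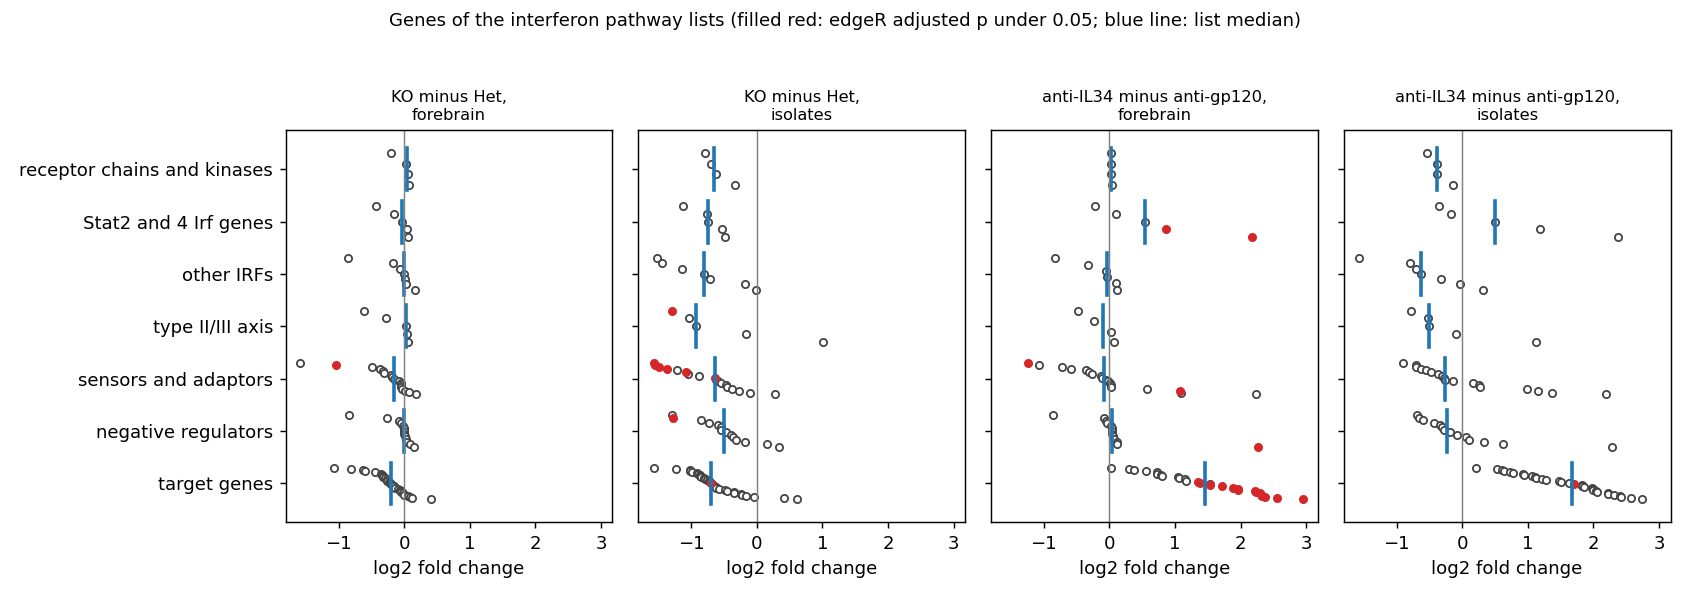
Fitted log2 fold change (horizontal axis) of each tested gene of the pathway lists in the 4 comparisons of arms, 1 point per gene, filled red where the edgeR adjusted p was under 0.05, with the list median as a blue line. In anti-IL34 forebrain the target genes have a median of 1.45 with 15 filled, while the medians of the receptor chains and of most other lists sit near 0.

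In anti-IL34 forebrain, 15 of 28 tested interferon target genes rose and none fell, where 0.717% of all genes were called, 33 higher and 90 lower. Their median log2 fold change was 1.45 beside 0.00079 over all genes. Oasl2, an oligoadenylate synthetase-like protein, rose by 2.95 ± 0.31 (SE, adjusted p = 0.00121). Ifi44 rose by 2.32 ± 0.32 (0.00671, and 0.0851 without anti-IL34 mouse 11), and Bst2, the membrane tether of budding virions, by 1.89 ± 0.25 (0.00524). Of 13 negative regulators 1 passed in edgeR, Usp18, which detaches Jak1 from Ifnar2, at 2.26 ± 0.33 (0.00893, and 0.11 without anti-IL34 mouse 11). Of 18 sensors and adaptors Ifih1, a sensor of double-stranded RNA, rose by 1.08 ± 0.20 (0.0388) and Sting1, the adaptor of cytosolic DNA sensing, fell by 1.24 ± 0.21 on the log2 scale (0.0189). With 1 mouse left out at a time, the Ifih1 call held in 2 of 8 fits and the Sting1 call in 3 of 8, and their highest adjusted p was 0.233 and 0.176, without anti-IL34 mouse 11. In the same forebrain libraries 8 neutrophil and monocyte markers summed to 2.0 to 4.93 CPM, against 1.73 to 4.75 in anti-gp120. The neutrophil marker Ly6g was at 0 in every anti-IL34 forebrain library, as in every KO forebrain library. Of the 8 markers 4 could be tested, 2 of them with a higher estimate, and 0 passed in edgeR. The part of such cells in the result was not tested. None of 6 other IRF genes passed in edgeR, the smallest p being that of Irf5 at -0.82 (adjusted p = 0.173), and none of 4 genes of the interferon gamma and lambda axis, led by Ifngr1 at -0.47 (0.0676, and 0.00462 in DESeq2). DESeq2 called 22 of the 28 target genes, 5 of the 18 sensors and adaptors, 2 of the 13 negative regulators, none of the 6 other IRF genes and 1 of the 4 genes of the gamma and lambda axis, beside 1.15% of all genes.

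In anti-IL34 isolates all 32 target genes had positive estimates, with a median of 1.67, and 1 passed in edgeR (Cmpk2, 1.71 ± 0.28, adjusted p = 0.0465) while DESeq2 called 23 of them and 11.5% of all genes. The edgeR share over all genes was 0.626%. Cmpk2, a mitochondrial nucleotide kinase, passed in 2 of 8 such fits, and its adjusted p was 0.225 without anti-gp120 mouse 7. Usp18 stood at 2.29 (0.0565), Sting1 at -0.90 (0.0625), Irf4 at -1.56 (0.0557) and Ifngr1 at -0.78 (0.0731), none past the threshold. In edgeR none of 7 other IRF, 18 sensor and 14 negative-regulator genes passed, and DESeq2 called 3, 7 and 2 of them, beside its 11.5% of all genes. In these isolates the neutrophil and monocyte markers summed to 159 to 439 CPM, against 45.1 to 300 in anti-gp120, and the choroid plexus markers to 6.86 to 2180 CPM, against 4.32 to 9.27. Their part in the result was not tested.

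Of 18 genes on the sensing side, some fell in KO isolates. Of these 18 sensors and adaptors 6 were lower and none higher, where 5.37% of all genes were called, 950 of those 976 lower. They include Sting1 (-1.49 ± 0.17, SE, adjusted p = 0.0136), Tlr4, the receptor of bacterial lipopolysaccharide (-1.07 ± 0.16, 0.0172), and Cgas, the cytosolic DNA sensor (-1.36 ± 0.25, 0.0318). Ifngr1, a chain of the interferon gamma receptor, fell by 1.29 ± 0.17 on the log2 scale (0.0146), and the signal transducers Stat6 (-1.16, 0.0358) and Stat5b (-0.54, 0.046) and the phosphatase gene Ptpn6 (-1.27, 0.0164) were lower. Of 32 target genes 1 fell (Mx2, -0.70 ± 0.15, 0.0463), and their median was -0.69. None of 7 other IRF genes passed in edgeR. DESeq2 called 9 of the 18 sensors and adaptors, 10 of the 32 target genes, 7 of 14 negative regulators, 5 of the 7 other IRF genes and 3 of 5 genes of the gamma and lambda axis, beside 21.4% of all genes. With 1 mouse left out at a time, each of the named edgeR calls remained in 2 of 7 fits, with adjusted p between 0.168 (Sting1) and 0.284 (Stat5b) without KO mouse 3. In KO forebrain the edgeR test called 1 gene of the lists, Tlr7, a sensor of single-stranded RNA, which fell (-1.04 ± 0.18, adjusted p = 0.0174). That call held in 2 of 7 fits that left out a mouse, with the highest adjusted p, 0.0857, without KO mouse 6. DESeq2 called Tlr7 and Ptpn6 (-0.85, edgeR adjusted p = 0.055, DESeq2 adjusted p = 0.0346). In the same libraries edgeR called 0.62% of all genes, and 0 of 28 target genes passed, with a median of -0.20.

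Irf7 was set against the other genes library by library, on the scale of log2(CPM + 1). The 4 anti-IL34 libraries had the highest Irf7 in both tissues, so the values were taken without them unless stated. Over the 11 other isolates Pearson's r was 0.962 with Stat2 (Spearman's rho 0.864), 0.945 with Irf9 (0.973), 0.783 with Irf1 (0.8) and 0.76 with Irf3 (0.836). With the receptor side it was 0.702 for Tyk2 (0.664), 0.68 for Ifnar2 (0.682), 0.601 for Jak1 (0.627) and 0.59 for Ifnar1 (0.609). Without the 2 isolates farthest from the median of Irf7, r was 0.898 with Stat2, 0.887 with Irf9 and between 0.416 (Ifnar1) and 0.717 (Irf3) with the others. Within the 7 Het and KO isolates r was 0.958 with Stat2 and 0.928 with Irf9, so Irf7 varied with both among mice that received no antibody. Over the 11 forebrain libraries without anti-IL34, at Irf7 levels of 0.289 to 1.79 CPM, r was highest with Irf1, at 0.768 (rho 0.755, and r 0.588 without the 2 farthest). It was 0.387 with Irf9, 0.35 with Irf3, 0.175 with Stat2 and between -0.373 (Jak1) and 0.094 (Tyk2) with the receptor side. Without the 2 farthest libraries it was -0.122 with Irf9, -0.016 with Stat2, 0.293 with Irf3 and 0.509 with Tyk2, so the sign with Irf9 and Stat2 turned. These correlations describe libraries whose genes share depth and cell content, and no test was made.

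**Figure D5:**
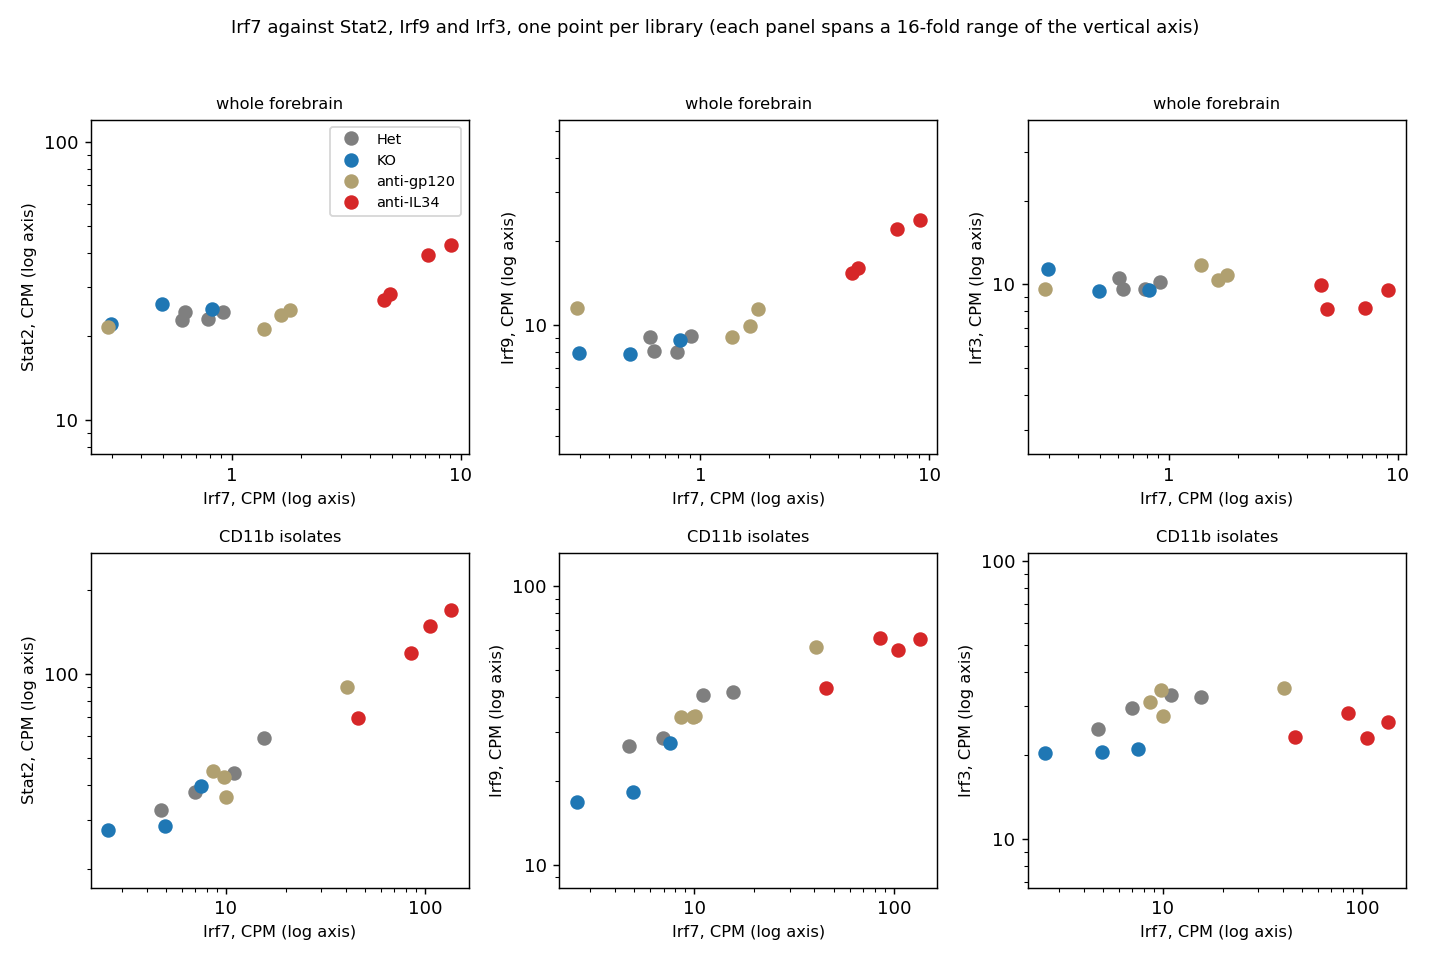
CPM of Stat2, Irf9 and Irf3 (vertical, log axis) against Irf7 (horizontal, log axis), 1 point per library coloured by arm, forebrain above and isolates below. Stat2 and Irf9 climb with Irf7 across the isolates, and Irf3 stays within a narrow band.

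Over all genes that passed the low-count filter, in a ranking that does pool the arms, the genes whose log2 CPM followed Irf7 most closely over the 15 isolates were Ifi209 (Pearson's r = 0.989), Ifi213 (0.989) and Oas1a (0.986). For Stat2 they were Sp100 (0.99), Xaf1 (0.989) and Zbp1 (0.986), and for Irf9 Trim30a (0.979), Trim30d (0.978) and Parp14 (0.978). In forebrain they were H2-T23 (0.967), H2-D1 (0.959) and Ifitm3 (0.95) for Irf7, Rtp4 (0.987) and Phf11d (0.985) for Irf9, and Xaf1 (0.925) and Mx2 (0.921) for Stat2. The 4 anti-IL34 libraries weigh on these ranks.

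Some of the 9 genes overlap other genes, and how the strand was treated in the counting is not given in the sources used here. The antisense gene 1700084C06Rik covers 89.5% of the span of Tyk2, with 2359 counts over all libraries against 27706 for Tyk2. The same-strand model Gm21970 covers 42.3% of the span of Ifnar2 and drew 94 counts. Bcl2l12 on the opposite strand covers 20.5% of Irf3, with 4292 counts against 18016. Gm17334 on the opposite strand covers 10.8% of Irf1 and drew 212 counts. Phrf1 on the opposite strand covers 1.19% of Irf7, with 58235 counts against 15156, and Rnf31 on the same strand covers 1.9% of Irf9, with 19422 counts against 24215. Reads of such pairs may have been assigned to either gene or to none.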

How the data were processed

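RNA came from forebrain and CD11b isolates of 15 mice, in libraries made with the Takara SMART-Seq v4 kit per the labels' protocols. The authors deposited a table of raw counts per gene and a table of TPM values. The submitters' processing notes name STAR 2.7.5c, featureCounts 1.6.3, R 4.4.0 and the build GRCm38, without roles. In the deposited count table, the Length of 51183 of 51498 genes matched to GENCODE M21 equals the gene span with introns. It equals the exon union in 0 of 32301 matched genes with introns. Whether reads in introns were counted is not given in the sources used here. Per-kilobase levels here divide by exon unions, so they may be too high for genes with long introns. Jak1 spans 112916 bases with 7227 of exon, and Irf7 3776 with 3776. The deposited TPM table was read for checks, and only the TPM values beside the per-kilobase levels come from it. In each of both deposited files, 6 columns matched no sample and were not used. Labels matched the deposited sample sheet for 30 of 30 libraries. All 42 pairs of replicates differed by more than counting noise (lowest chi-square per degree of freedom 5.87).

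The test of counts was that of edgeR 4.0.16, run in R 4.3.3 (quasi-likelihood F test, TMM scaling, filterByExpr, sex as covariate), with Benjamini-Hochberg adjustment over all genes tested and a threshold of 0.05. DESeq2 1.42.0, RLE scaling, no sex term, all 15 libraries of a tissue, no filter, the animal as a block, and leaving out each mouse were the alternatives. SEs and 95% intervals of log2 fold changes come from the edgeR statistic. The edgeR code was tested on simulated data. Levels are CPM with TMM factors (0.831 to 1.13) over all 30 libraries. Totals were 15.1 to 75.2 M counts, and the precision is lowest for Irf7 in forebrain, with 5 to 198 counts a library.

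Libraries of 1 mouse are paired by animal, per the labels. Their deviations from group means correlated with a median r of 0.109 (0.0394 to 0.172, above 0.1 in 9 of 15 mice), against -0.0385 between mice. The 9 genes and the gene lists were chosen with earlier results of these data known. Named beside the 9 were, per list and comparison, up to 3 genes of smallest p past the threshold, or otherwise the 2 of smallest p as values, of which some are printed. The genes most like Irf7, Irf9 and Stat2 were the 3 of highest Pearson r. A gene that these rules name is not reported here. The correlations of Irf7 within sets of libraries, among them those without anti-IL34, were added after seeing the data, with a pseudocount of 1. Promoter windows are those of RefSeq (GRCm38.p6), and all 9 genes matched. In the comparisons within a tissue, p-values measure the spread between mice. The main fits of the tissue contrast and of the tissue interactions took the 2 libraries of a mouse as separate replicates, so their p-values do not. The fits with the animal as a block keep the pairing.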

Additional observations from a re-analysis of the deposited data

Results flagged for a closer look

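In anti-gp120 isolates, mouse 1 stood far above the other 3 libraries for 3 of the genes: Irf7 at 40.5 CPM (others 8.58 to 10.0), Stat2 at 89.7 CPM (others 36.2 to 44.7) and Irf9 at 60.4 CPM (others 34.0 to 34.2). In each case its gap to the nearest other library, divided by the range of the group, exceeded the 95% critical value of Dixon's test for 4 samples. The test was made in 54 combinations of gene and group and marked these 3. Chance alone marks about 1 in 20 of them, so a count of 3 is near what chance gives. The 3 marks come from a single library. The 3 genes also varied together over the 15 isolates (Pearson's r 0.915 to 0.98), so the marks are not separate. The cause was not tested.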

How the results depend on the processing

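Of the values of the 9 genes under the alternatives, 964 kept their direction and their side of the threshold, 7 lost the call, 53 gained it and 29 changed sign. The sign changes all arose in genes that had not passed, when 1 mouse was left out. With DESeq2 the counts of genes past the threshold were 3887 (KO isolates, 5 of the 9 genes), 198 (anti-IL34 forebrain, 3 of the 9), 2015 (anti-IL34 isolates, 3 of the 9), 3635 and 1092 (tissue interactions of KO and anti-IL34, 2 and 1 of the 9), and 28 and 35 (deletion against antibody, forebrain and isolates, 1 of the 9 each). Without the sex term they were 2189 in KO isolates (3 of the 9) and 983 in anti-IL34 isolates (1 of the 9). With all 15 libraries of a tissue in the fit they were 2734 (4 of the 9), 204 (anti-IL34 forebrain, 3 of the 9) and 988 (2 of the 9). With no filter on low counts they were 381 (KO forebrain), 1993 (KO isolates, 1 of the 9), 349 (anti-IL34 forebrain, 3 of the 9) and 819 (anti-IL34 isolates, 2 of the 9). RLE scaling gave 48 for the anti-IL34 interaction. With the animal as a replicate block both interaction counts were 0, the tissue contrast gave 15642 genes and all 9 members of the chain, and comparisons between arms hold different mice, so that no block applies there. Leaving out each mouse in turn, the counts ran from 55 to 117 in KO forebrain, 0 to 5756 in KO isolates (0 to 5 of the 9), 25 to 126 in anti-IL34 forebrain (0 to 3 of the 9, with 0 without anti-IL34 mouse 11) and 0 to 6905 in anti-IL34 isolates (0 to 6 of the 9). They ran from 0 to 5688 and 0 to 5565 for the interactions (0 to 5 and 0 to 3 of the 9), and from 2 to 33 and 0 to 5 for deletion against antibody (0 to 1 of the 9 in forebrain). Log2 differences that changed sign this way in KO forebrain ran from -0.019 to 0.078 (Tyk2), -0.067 to 0.099 (Irf3), -0.92 to 0.0054 (Irf7) and -0.083 to 0.0040 (Irf9). In anti-IL34 forebrain they ran from -0.074 to 0.088 (Ifnar2), -0.023 to 0.074 (Jak1), -0.069 to 0.094 (Tyk2) and -0.11 to 0.31 (Irf1). In the anti-IL34 interaction they ran from -0.39 to 0.025 (Tyk2) and -0.12 to 0.95 (Irf7). In deletion against antibody they ran from -0.062 to 0.10 (Tyk2, forebrain) and from -0.0016 to 0.060 and -0.058 to 0.21 (Ifnar1, forebrain and isolates). Where the counts moved, the cause was not tested.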
